A study of Homo sapiens with 4 samples.

Results

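Innate nucleic acid sensing and interferon response genes were followed in AMO1, an established cell line of human multiple myeloma, through 7 genes taken by name from the deposited table of 1232 genes: the sensor-side genes TMEM173 (STING) and TLR7, and the response genes MX1, MX2, EPSTI1, CXCL10 and OAS3. The series compared cells overexpressing PHF19, a Polycomb-like accessory protein of the repressive complex PRC2, with cells carrying an empty vector (EV). Both groups had received a PCDH vector by lentivirus, and each held 2 libraries. Whether the cells were clones or pools, and whether the libraries came from separate cultures, is not given in the sources used here, so the spread between libraries may be technical. The table is restricted to genes whose p-value in the authors' test was below 0.05, and the 7 genes were chosen with their values in this comparison known. Their differences between the groups are therefore a description, with no test, and genes outside the table are not analysed here.

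Cells detect misplaced nucleic acids with separate sensors. The membrane protein STING relays the signal of cytosolic DNA from the enzyme cGAS, and the endosomal receptor TLR7 recognises single-stranded RNA and is used by B lineage cells and plasmacytoid dendritic cells. Both pathways can induce type I interferon, which acts through JAK kinases and interferon regulatory factors on a sequence called the interferon-stimulated response element (ISRE) to switch on antiviral effectors and chemokines.

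The libraries held 35258920 and 29461022 counted reads in EV replicates 1 and 2 and 23835805 and 28156519 in the overexpressing replicates 1 and 2. PHF19 itself stood at 1842 and 4506 normalized counts in the EV libraries and at 9670 and 8777 in the overexpressing libraries. Its overexpressing mean was 5.01- and 2.05-fold above EV replicates 1 and 2. In the authors' deposited table its adjusted p was 0.0897, so it did not pass 0.05. A normalized count is the raw count divided by the authors' factor for that library. Of 16881 genes 293, or 1.74%, passed an adjusted p of 0.05 in the authors' deposited table; 181 of them (1.07%) were lower and 112 (0.663%) higher. EV replicate 1 stood apart from EV replicate 2: 500 of the 1232 listed genes, 40.6%, exceeded 2-fold in its favour, against 167 (13.6%) in favour of EV replicate 2 (differences of log2 values, taken after adding 1 to the normalized count). Of 9 plasma cell markers CD38 alone was in the table (3228 and 2138 in EV, 901 and 660 in overexpressing cells), so the labelled cell type could not be checked against the others.

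The 7 genes separated into 3 patterns. TMEM173 and OAS3 were on in both libraries of one group and had 0 counts in both libraries of the other, in opposite directions. TLR7 in EV replicates 1 and 2 was 55.9- and 22.2-fold above the overexpressing mean. MX1, MX2, EPSTI1 and CXCL10 were lower in overexpressing cells, but only by 2.13- to 3.09-fold against the lower EV library of each gene. In TLR7 and in these genes the amount depended on which EV library was used. In the authors' normalized counts the groups did not overlap in any of the 7 genes, and 90.5% of all listed genes did not overlap either. Overlap under other scalings was not examined. All 7 passed the authors' adjusted p of 0.05, where 23.8% of the listed genes did; the choice of the genes fixed this, so nothing is read from it.

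**Figure D1:**
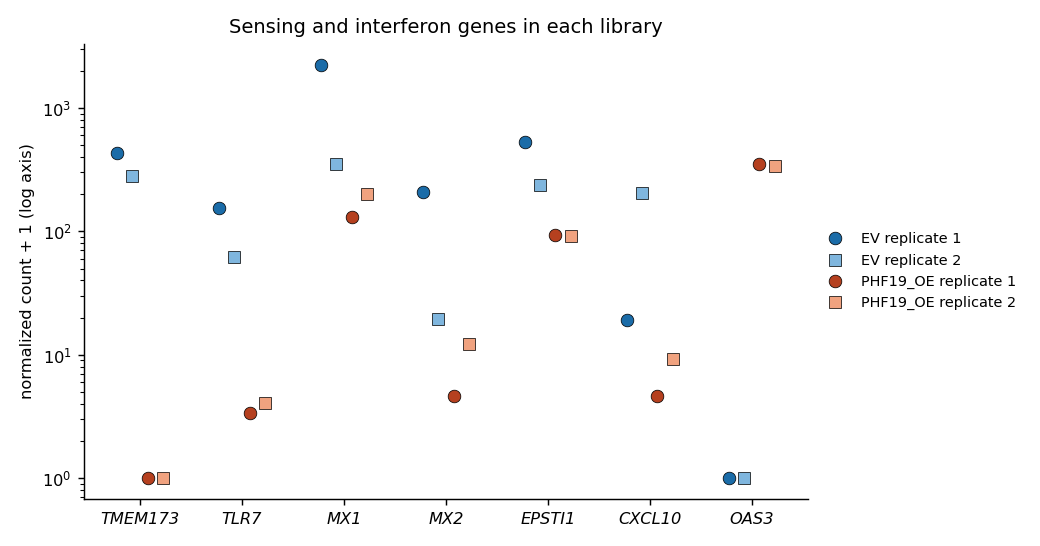
Normalized count plus 1 on a log axis for each of the 7 genes, with 1 point per library (circles for replicate 1, squares for replicate 2; blue for EV, red for PHF19 overexpression). TMEM173 and OAS3 show 0 counts, plotted at 1, in opposite groups, and EV replicate 1 reached 2240 for MX1 where EV replicate 2 reached 351.

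TMEM173 encodes STING, the adaptor that carries the cytosolic DNA signal to interferon induction (chromosome 5, 139475534 to 139482935, minus strand of hg38). Its raw counts were 542 and 286 in EV replicates 1 and 2 and 0 and 0 in the overexpressing libraries. As normalized counts the EV libraries stood at 429 and 280, a mean of 354 ± 106 (SD, n = 2). Both EV libraries carried the transcript and neither overexpressing library gave a read. Set against 3 counts over the overexpressing group as a floor, the EV mean was at least 214-fold higher, and at least 259- and 169-fold for EV replicates 1 and 2 taken singly. Per gene length the EV level was 3.99 and 2.52 FPKM (fragments scaled by gene length and by library total). Intervals and floors here cover counting error only, and in bulk RNA fewer expressing cells and less RNA per cell cannot be told apart. No other of 13 genes of the DNA sensing list, which holds cGAS (as MB21D1), TBK1 and IRF3, was in the table.

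TLR7 (chromosome X, 12867083 to 12890380, plus strand) had 193 and 62 raw counts in the EV libraries and 2 and 3 in the overexpressing libraries. Its normalized counts were 153 and 60.6 against 2.40 and 3.07. The lower EV library still lay 19.7-fold above the higher overexpressing library. The EV mean of 107 ± 65.2 stood 39.0-fold above the overexpressing mean of 2.74 ± 0.471 (SD, n = 2 each), and this became 22.2-fold without EV replicate 1. With only 5 reads in overexpressing cells, the ratio of the scaled summed counts was 40.4 with an exact 95% counting interval of 17.1 to 125.

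IRAK3 was the other listed gene among 21 Toll-like receptors and adaptors, and it moved the opposite way. It encodes IRAK-M, a kinase-like protein that restrains signalling downstream of Toll-like receptors. Its raw counts were 0 and 1 in EV and 27 and 48 in overexpressing cells, or 0, 0.978, 32.4 and 49.1 normalized counts. The ratio of scaled summed counts was 94.7 with an exact 95% counting interval of 16.5 to 3791, and the adjusted p in the authors' deposited table was 0.0305. The receptors TLR3, TLR8 and TLR9 and the adaptor MYD88 were not in the table, nor was any of the 10 RNA sensors and adaptors, which include DDX58 (RIG-I), IFIH1 and MAVS.

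Promoter windows from RefSeq (GRCh38.p14; 250 bases before to 50 after a gene start) were at hand for 4 of the 7 genes, the response genes MX1, EPSTI1, CXCL10 and OAS3. They are shown because OAS3 went the opposite way from the other 3. Capitals mark each match to the ISRE letters GAAANNGAAA on either strand. The windows are chr21:41420308-41420607 on the plus strand for MX1 (the first of its 3 listed starts), chr13:42992192-42992491 on the minus strand for EPSTI1, chr4:76023448-76023747 on the minus strand for CXCL10 and chr12:112938224-112938523 on the plus strand for OAS3, each written 5′ to 3′ along the gene.
MX1: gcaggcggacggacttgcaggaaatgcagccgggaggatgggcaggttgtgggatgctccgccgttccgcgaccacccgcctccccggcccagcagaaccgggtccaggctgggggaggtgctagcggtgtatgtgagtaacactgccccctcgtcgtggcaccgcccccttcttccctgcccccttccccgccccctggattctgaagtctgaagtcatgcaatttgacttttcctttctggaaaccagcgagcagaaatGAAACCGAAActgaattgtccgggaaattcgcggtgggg
EPSTI1: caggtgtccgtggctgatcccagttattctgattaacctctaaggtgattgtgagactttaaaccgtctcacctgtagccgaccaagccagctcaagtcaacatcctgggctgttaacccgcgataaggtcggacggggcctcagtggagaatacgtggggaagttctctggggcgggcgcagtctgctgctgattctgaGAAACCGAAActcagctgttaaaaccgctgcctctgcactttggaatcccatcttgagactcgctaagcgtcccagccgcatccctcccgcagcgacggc
CXCL10: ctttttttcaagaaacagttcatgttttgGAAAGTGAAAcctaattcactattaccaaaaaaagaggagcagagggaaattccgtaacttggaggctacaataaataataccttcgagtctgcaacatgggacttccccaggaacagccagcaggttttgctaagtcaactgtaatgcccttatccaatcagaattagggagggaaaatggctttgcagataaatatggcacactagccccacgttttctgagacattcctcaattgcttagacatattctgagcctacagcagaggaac
OAS3: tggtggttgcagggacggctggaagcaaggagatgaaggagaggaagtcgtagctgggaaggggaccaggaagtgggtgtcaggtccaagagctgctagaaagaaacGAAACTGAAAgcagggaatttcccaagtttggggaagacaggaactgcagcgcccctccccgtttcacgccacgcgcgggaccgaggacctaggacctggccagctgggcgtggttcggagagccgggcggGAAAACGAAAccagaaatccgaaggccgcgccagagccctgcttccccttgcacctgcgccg

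All 4 genes held an ISRE match, while 3.57% of 35116 promoter windows of this length and 4.38% of their genes did. Of 111 sensing and interferon list genes with a window, these 4 among them, 46 held a match. OAS3 had 2 matches, GAAACTGAAA and GAAAACGAAA, and MX1 and EPSTI1 shared the same letters, GAAACCGAAA. Hence the letters were present both in the response genes that were lower and in the gene that was higher. Of all called genes with a window, these 4 included, 12 of 118 lower and 2 of 72 higher genes held a match. The MX1 match began 11 bases past the first listed gene start, the second MX1 window had none, and the third had a match on the other strand. A second interferon element, GAS (letters TTCNNNGAA, both strands), matched in EPSTI1, where its end overlaps the ISRE match, in the third MX1 window, and in 7.66% of all windows. A pattern for NF-kB, GGGANNTNCC on both strands, matched in CXCL10 and OAS3 and in 4.93% of all windows; it was picked after the sequences were read. These matches describe letters and say nothing of binding.

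**Figure D2:**
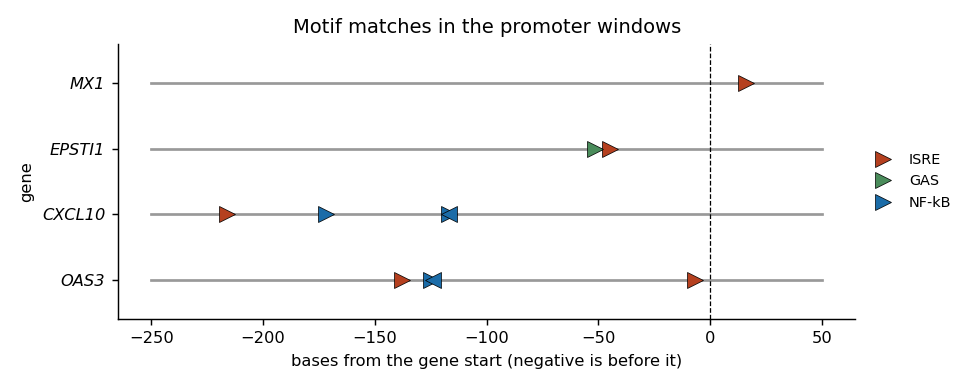
Matches to the ISRE, GAS and NF-kB letters in the promoter windows of MX1 (first start), EPSTI1, CXCL10 and OAS3, by distance in bases from the gene start (dashed line). Triangles point right for a match on the gene's strand and left for the other strand; OAS3 carries 2 ISRE matches and each other gene 1.

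OAS3, an oligoadenylate synthetase that senses double-stranded RNA and makes an antiviral second messenger, was the response gene that was higher (chromosome 12, 112938352 to 112973249, plus strand). It had 0 counts in both EV libraries and 290 and 327 in the overexpressing libraries. The normalized counts of 348 and 335 differed by a factor of 1.04, the closest pair but EPSTI1 among the genes detected in overexpressing cells. Their mean of 342 ± 9.79 (SD, n = 2) was at least 260-fold above an EV floor of 3 counts over both libraries. The level was 1.47 and 1.41 FPKM. OAS1 (112906777 to 112933222) and OAS2 (112978395 to 113011723), which flank OAS3 on either side of the same strand, were not in the table, nor was OASL. An antisense gene, AC004551.1, overlaps OAS3, and since the use of strand is not stated, reads of the pair cannot be told apart.

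MX1, a dynamin-like GTPase that blocks viral nucleocapsids, was the most abundant of the 7 in EV replicate 1 (chromosome 21, 41420304 to 41459214, plus strand). Its normalized counts were 2240 and 351 in EV and 130 and 201 in overexpressing cells. Both EV libraries were above both overexpressing libraries, but the lower EV library was only 1.75-fold above the higher overexpressing library. The fold of means was 7.84 (1296 ± 1336 against 165 ± 50.1, SD, n = 2 each), 13.6 from EV replicate 1 alone and 2.13 from EV replicate 2 alone. An antisense gene, AP001610.1, overlaps MX1 and cannot be told apart from it either.

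MX2, its neighbour and paralogue that restricts retroviruses such as HIV, ends 10913 bases before MX1 begins (41361943 to 41409390, plus strand). It followed the order of MX1 at a lower level, with normalized counts of 209 and 18.6 in EV and 3.60 and 11.3 in overexpressing cells. EV replicate 1 exceeded EV replicate 2 by 11.3-fold, and EV replicate 2 exceeded the higher overexpressing library by 1.65-fold. The fold of means was 15.3, from 114 ± 135 to 7.43 ± 5.41 (SD, n = 2 each). It was 2.50 without EV replicate 1, 28.1 without EV replicate 2, 10.1 without overexpressing replicate 1 and 31.6 without overexpressing replicate 2. Of the 50-base words in MX2 transcripts, 0.248% also occurred in transcripts of other genes, MX1 among them.

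EPSTI1, an interferon-stimulated gene first described in epithelial and stromal cell contact, had the smallest fold of means of the 7 (chromosome 13, 42886388 to 42992271, minus strand). Normalized counts were 528 and 236 in EV and 92.5 and 91.1 in overexpressing cells. The overexpressing pair was nearly equal, while EV replicate 1 was 2.24-fold above EV replicate 2. The fold of means was 4.16 (382 ± 206 against 91.8 ± 1.02, SD, n = 2 each), 5.75 from EV replicate 1 alone and 2.57 from EV replicate 2 alone. CXCL10 was below it against EV replicate 1, and MX1 and MX2 against EV replicate 2.

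CXCL10, the chemokine that draws CXCR3-bearing T cells, was the exception in the control pair (chromosome 4, 76021117 to 76023497, minus strand). It was high in EV replicate 2, at 203 normalized counts, and low in EV replicate 1, at 18.2, while the overexpressing libraries stood at 3.60 and 8.19. EV replicate 2 was thus 11.2-fold above EV replicate 1, the reverse of TMEM173, TLR7, MX1, MX2 and EPSTI1. The fold of means was 18.8 (111 ± 131 against 5.90 ± 3.24, SD, n = 2 each). It was 3.09 with EV replicate 1 alone and 34.5 with EV replicate 2 alone, and 13.5 and 30.7 without overexpressing replicates 1 and 2. CXCL9 and CXCL11, on either side of it, were not in the table, and the gene lies within the span of ART3 on the opposite strand.

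**Figure D3:**
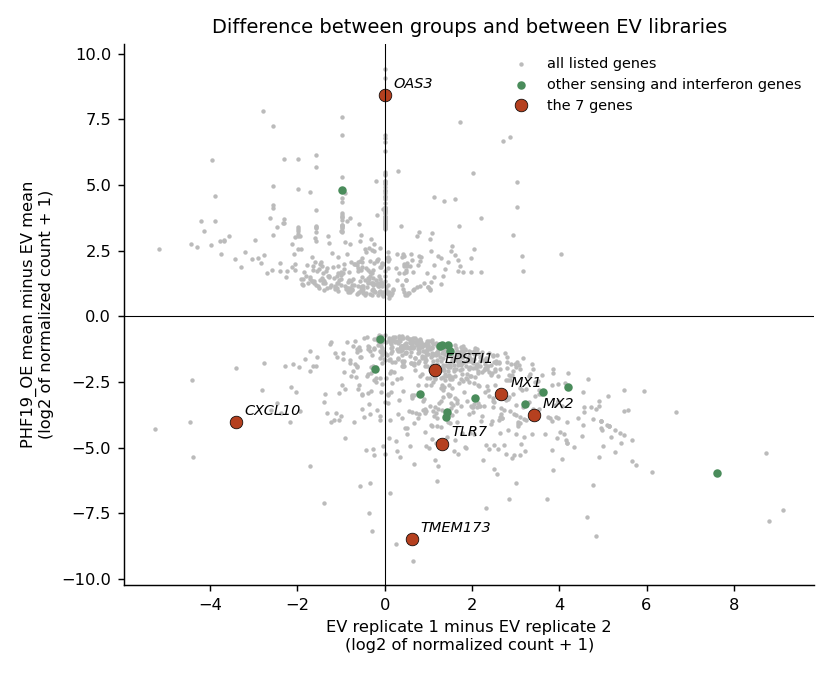
Each point is a listed gene: the x axis gives EV replicate 1 minus EV replicate 2 and the y axis the mean of the overexpressing libraries minus the EV mean, both as log2 values after adding 1 to the normalized count. Of the 7 genes (red), CXCL10 lies at -3.41 on the x axis and MX2 at 3.42, whereas TMEM173 (0.62) and OAS3 (0) lie closest to 0 there and farthest from 0 on the y axis; other sensing and interferon genes are green.

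Between the EV libraries, in log2 units after adding 1, the difference in normalized count (replicate 1 minus replicate 2) was 0.62 for TMEM173, 1.32 for TLR7, 2.67 for MX1, 3.42 for MX2, 1.16 for EPSTI1 and -3.41 for CXCL10. On the same scale the overexpressing mean minus EV replicate 2 was -1.08 for MX1, -1.22 for MX2 and -1.35 for EPSTI1. The corresponding difference from EV replicate 1 was -3.75, -4.64 and -2.51. For TMEM173 it was -8.75 and -8.13 against EV replicates 1 and 2, and for TLR7 -5.36 and -4.04. For CXCL10 it was -1.48 and -4.89, and for OAS3, at 0 in both EV libraries, 8.42 against each. The gap to either EV library thus exceeded the gap between the EV libraries for TMEM173, TLR7, OAS3 and EPSTI1. It did not for MX1 and MX2 against EV replicate 2, or for CXCL10 against EV replicate 1.

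The order of levels per gene length was not stable within the EV group. In EV replicate 1 MX1 led with 9.31 FPKM, followed by TMEM173 at 3.99, EPSTI1 at 3.84, TLR7 at 1.05, MX2 at 0.574 and CXCL10 at 0.555. In EV replicate 2 CXCL10 led with 6.0 FPKM, followed by TMEM173 at 2.52, EPSTI1 at 1.66, MX1 at 1.41, TLR7 at 0.404 and MX2 at 0.0494. TMEM173 and EPSTI1 kept the second and the third place in both. Their EV levels of 3.26 ± 1.04 and 2.75 ± 1.54 FPKM (SD, n = 2 each) did not differ beyond their spread, nor did either differ from CXCL10 at 3.28 ± 3.85 or MX1 at 5.36 ± 5.58 FPKM (SD, n = 2 each). OAS3 was listed at 0 FPKM in both.

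In overexpressing cells OAS3 took the first place with 1.44 ± 0.0474 FPKM (SD, n = 2). MX1 (0.526 and 0.808 FPKM) and EPSTI1 (0.656 and 0.642 FPKM) came next and exchanged places between the libraries. CXCL10 stood at 0.107 and 0.242 FPKM. MX2 (0.0198 ± 0.0144 FPKM) and TLR7 (0.0183 ± 0.00307 FPKM; SD, n = 2 each) did not differ beyond their spread, and TMEM173 was listed at 0.

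**Figure D4:**
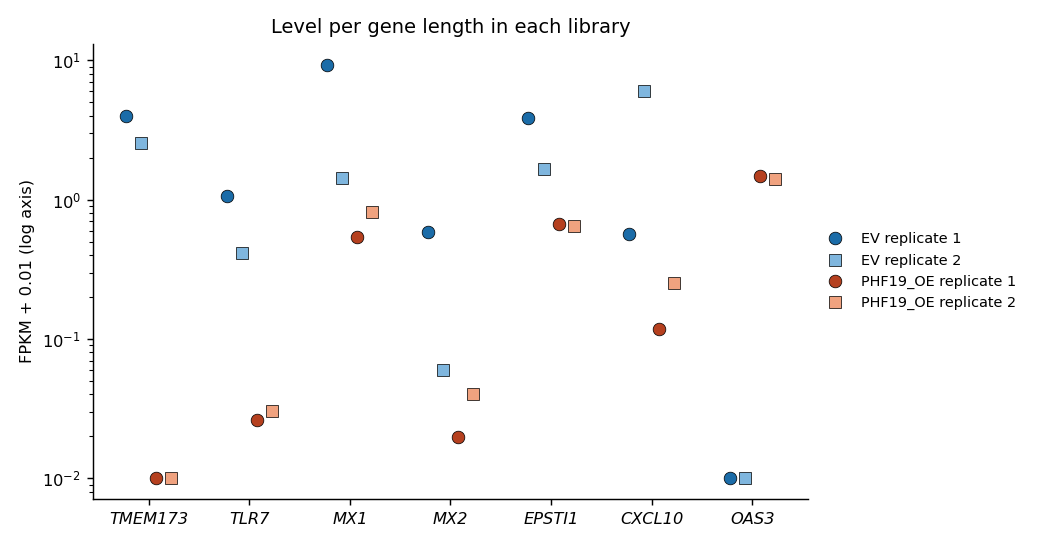
FPKM plus 0.01 on a log axis for each of the 7 genes, with 1 point per library (circles for replicate 1, squares for replicate 2; blue for EV, red for PHF19 overexpression). OAS3 is the highest of the 7 in both overexpressing libraries, at 1.47 and 1.41 FPKM, and is listed at 0 in both EV libraries.

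The wider pathway was read from 9 lists of sensing and interferon genes, 149 genes in all. Of these 22 were in the table, 20 lower and 2 higher, the latter being OAS3 and IRAK3. Without the 7 chosen genes it was 15 of 142 (10.6%), 14 lower and 1 higher. The table holds 1232 of the 16881 genes adjusted over. The median log2 fold change of the 22 in the authors' deposited table was -3.0, against -1.33 over all 1232 listed genes. Of all listed genes 63.6% were lower. At the authors' adjusted p of 0.05, 7 fell and 2 rose, but 7 of these 9 are the genes chosen with their calls known. Of the other 15 genes 2 passed, SOCS1 (lower) and IRAK3 (higher), beside 23.8% of all listed genes. These 15 had a median log2 fold change of -2.80. DTX3L, at an adjusted p of 0.117 in the authors' deposited table, was the nearest gene outside the threshold, and MX2, at 0.0482, the nearest inside it.

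SOCS1, which shuts off JAK kinases downstream of interferon receptors, followed the pattern of MX1. Its normalized counts were 1281 and 138 in EV and 80.5 and 56.3 in overexpressing cells. EV replicate 1 was 9.29-fold above EV replicate 2. The fold of means was 10.4, or 18.7 against EV replicate 1 alone and 2.02 against EV replicate 2 alone, and the adjusted p in the authors' deposited table was 0.00485.

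IRF7, which drives interferon alpha transcription downstream of TLR7, differed less. It stood at 2171 and 792 normalized counts in EV and at 761 and 617 in overexpressing cells. EV replicate 2 lay 1.15-fold above the overexpressing mean, and the gene did not pass the adjusted p of 0.05 in the authors' deposited table.

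DTX3L, HERC5 and IFITM2 were the listed pathway genes below both EV libraries in overexpressing cells with the EV pair within 2-fold, apart from TMEM173. DTX3L, a ubiquitin ligase, stood at 205 and 238 in EV and 27.6 and 79.8 in overexpressing cells. HERC5, the ligase for the ubiquitin-like protein ISG15, stood at 1404 and 1500 against 761 and 849. IFITM2, a membrane restriction factor, stood at 31.7 and 17.6 against 3.60 and 1.02, and shares closely related sequence with IFITM1. Its listed span (chromosome 11, 307631 to 315272, plus strand) also contains that of IFITM1 (313506 to 315272, plus strand). How reads in the shared span were assigned is not given in the sources used here. None of the 3 passed the adjusted p of 0.05 in the authors' deposited table. The EV mean was 4.12-, 1.80- and 10.6-fold above the overexpressing mean.

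SOCS3, IFITM1 and RSAD2 (viperin) were high in EV replicate 1 alone. SOCS3 stood at 771 and 2.93 normalized counts in EV and at 7.21 and 3.07 in overexpressing cells. IFITM1 stood at 125 and 5.87 against 9.61 and 9.21, and RSAD2 at 120 and 8.80 against 2.40 and 13.3. In these 3 genes, and in APOL6, the groups overlapped. None passed.

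**Figure D5:**
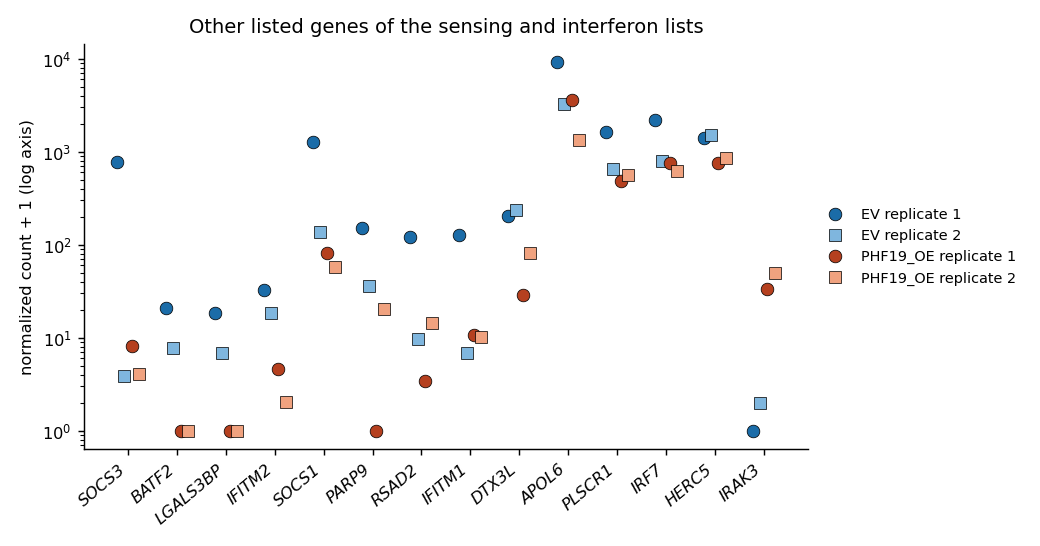
Normalized count plus 1 on a log axis for 14 other listed genes of the sensing and interferon lists, with 1 point per library (circles for replicate 1, squares for replicate 2; blue for EV, red for PHF19 overexpression), ordered by the deposited log2 fold change. SOCS3, SOCS1, RSAD2 and IFITM1 show EV replicate 1 far above the other 3 libraries, and IRAK3 alone is higher in overexpressing cells.

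Over all 22 genes, 15 stood over 2-fold above EV replicate 2 in the first EV library. CXCL10 alone exceeded 2-fold the other way. Over all listed genes the shares were 40.6% and 13.6%. In log2 units after adding 1, the median difference of the overexpressing mean was -3.45 from EV replicate 1 and -1.04 from EV replicate 2 (-1.57 and -0.42 over all listed genes). Without the 7 chosen genes the median of the other 15 was -3.30 from EV replicate 1 and -0.38 from EV replicate 2, the latter close to that of all listed genes. On that scale 12 of the 22 lay over 2-fold below both EV libraries, and 6 of the other 15, beside 31.6% of all listed genes. Immediate early and heat shock genes moved with EV replicate 1 as well: 9 of 23 were listed, all 9 over 2-fold above EV replicate 2 in the first EV library, with summed normalized counts of 38007 and 4183 in EV and 5230 and 3192 in overexpressing cells. Their part in the interferon differences was not tested.

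Of 35 markers of other cell types 5 were in the table (14.3%), and ITGAM, CDH1 and HBB passed the authors' adjusted p of 0.05. The share was 14.8% for the pathway genes and 10.6% without the 7 chosen genes, where the table holds 1232 of the 16881 genes adjusted over. Absence from the table says nothing of a marker's level. None of 6 plasmacytoid dendritic cell markers was in the table. Of 11 T and NK cell markers CD3E and TRAC were listed, summing to 85.5 and 40.1 normalized counts in EV and 2.40 and 5.12 in overexpressing cells. Of 8 myeloid markers ITGAM was listed, at 94.3 and 15.6 in EV and 0 in both overexpressing libraries. CDH1, of 6 epithelial and stromal markers, stood at 99.0 and 9.78 against 1.20 and 0, and HBB, of 4 erythroid markers, at 58.6 and 24.4 against 233 and 180. Their part in the differences of TLR7 and the response genes was not tested.

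Among listed coding genes outside the lists, those with profiles most like MX1 across the 4 libraries were ELMOD1, THNSL2 and MACROD2, at Euclidean distances of 0.291, 0.334 and 0.377 between mean-centred log2 values (normalized count with 1 added). MX2 lay at 1.0 from MX1 and EPSTI1 at 1.27. Among the genes most like TMEM173 were CD300A (0.827) and PDCD1 (1.18), both with 0 counts in the overexpressing libraries. The genes most like OAS3 were NSG1 (0.684), ARHGAP15 (1.01) and ROBO2 (1.09), each with at most 0.978 normalized counts in an EV library. A shared value at or near 0 sets much of the likeness in the last 2 groups.

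The calls rested on the authors' test. When the listed counts were refitted with edgeR's quasi-likelihood test, the authors' size factors and adjustment over the listed genes alone, TMEM173, TLR7 and OAS3 passed an adjusted p of 0.05 (0.0392, 0.0418 and 0.0363), while MX1, MX2, EPSTI1 and CXCL10 missed it (0.0813, 0.0932, 0.0833 and 0.0873). TLR7 also missed it with no filter on low counts (edgeR adjusted p = 0.0567). Adjusted over all 16881 genes, the same edgeR fit called none of the 7, with adjusted p of 0.574 for OAS3, 0.620 for TMEM173, 0.662 for TLR7 and 1 for the other 4; unadjusted, all 7 lay under 0.05. DESeq2 was adjusted over the 1232 listed genes alone, not over 16881, so it is not comparable with that last edgeR setting. With the authors' factors it put all 7 under 0.05, the highest DESeq2 adjusted p being 0.0313 for EPSTI1. With its own factors MX1, MX2 and EPSTI1 missed it (DESeq2 adjusted p of 0.0655, 0.112 and 0.272). These refits used rows selected on these samples and are no independent evidence.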

How the data were processed

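RNA from AMO1 cells was extracted with a column kit and made into libraries with a SMARTER mRNA-Seq kit, per the labels' protocols. Per the submitters' processing notes the build was hg38; which aligner, counter, strand setting and test were used is not given in the sources used here. Per the file headers, the deposited columns are raw counts per gene and library, normalized values (a signal scale of counts over a factor per library), FPKM, log2 fold changes, and p-values with adjusted p-values. Library totals were recovered from the deposited FPKM, counts and gene lengths, and the number of genes adjusted over, 16881, from the deposited p-values (1208 of the 1232 adjusted values returned within a relative tolerance of 1e-06, the other 24 being 1). Column names matched the short names in the labels. Coordinates of 1228 genes, the 7 among them, equal those of GENCODE 29.

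The authors' adjusted p of 0.05 is the main call, because the rows are a selection. The counts were refitted with edgeR 4.0.16 (quasi-likelihood, filterByExpr) and DESeq2 1.42.0 in R 4.3.3, and the edgeR step was tested on simulated data. The members and gene lists were chosen with earlier results of these data known. Named genes are the 7, all other listed genes of the 9 pathway lists, and for MX1, TMEM173 and OAS3 the 3 listed coding genes nearest in profile, and a few genes the rule names are left out here. Other settings tried were the pseudocount (1, 5 or 0.1), scaling, FPKM, leaving out each library, the threshold and the promoter window. A group with 0 counts was set against 3 counts over the group. An exact permutation test of 2 against 2 libraries cannot go below 0.333 and was not used.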

Additional observations from a re-analysis of the deposited data

How the results depend on the processing

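All 7 genes kept their direction under each of 10 alternatives of pseudocount, scaling, FPKM and left-out library. In the authors' normalized counts the groups did not overlap in any of the 7, so pseudocounts and left-out libraries could not have reversed a direction. Nor could scaling for TMEM173 and OAS3, with 0 counts in a whole group. In those settings the outcome was fixed beforehand. The median log2 difference of the 7 (overexpressing minus EV, normalized count plus 1) was -3.77; it was -2.81 with FPKM plus 0.1, -2.57 with TMM factors and -2.46 with DESeq2 size factors from the listed genes, and ran from -4.60 to -1.35 when each library was left out in turn. Those TMM and DESeq2 factors shifted the median of all listed genes by 0.75 and 0.88. The authors called 293 genes, 38.2% of them higher. On the listed counts edgeR called 0 when adjusted over 16881 genes (522 at an unadjusted p under 0.05). Adjusted over the listed genes alone, it called 149 (51.7% higher), 165 with TMM factors (70.3% higher) and 55 with no filter on low counts. DESeq2, also adjusted over the listed genes alone, called 363 with the authors' factors and 499 with its own (78.2% higher). Leaving out each library in turn gave edgeR counts of 603 and 1093 without EV replicates 1 and 2 and of 35 and 28 without overexpressing replicates 1 and 2, where a group of 1 library takes the spread of the other. In those fits MX2 missed 0.05 without EV replicate 1 (adjusted p = 0.438) and CXCL10 without EV replicate 2 (adjusted p = 0.335). Without overexpressing replicate 1 or 2, TLR7, MX1, MX2, EPSTI1 and CXCL10 all missed it (edgeR adjusted p of 0.244 to 0.416 and of 0.252 to 0.456), and TMEM173 and OAS3 passed. With TMM factors MX1, MX2 and EPSTI1 missed it (0.127, 0.154 and 0.184), and CXCL10 was removed by the count filter. With the replicate number as a block (replicate block) edgeR called 297, MX1 (adjusted p = 0.00906) and CXCL10 (0.0325) now among them, while MX2 (0.0739) and EPSTI1 (0.0608) still missed; the labels do not say that a number marks a shared culture, and the replicate differences of the 2 groups correlated with r = 0.248 across 1105 listed genes with a mean of at least 10 normalized counts. The cause of these changes was not tested. An adjusted p of 0.1 left the 9 called pathway genes at 9, and with the 250 bases before the start alone 4 genes still held an ISRE match, MX1 only through a window at another of its starts. TLR7, MX2 and CXCL10 had 14 or fewer reads over both overexpressing libraries, which limits their folds.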

Other observations

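Each of the 7 but EPSTI1 had another listed gene within 500 kb, MX1 and MX2 each other. NRG2, a neuregulin gene near TMEM173, stood at 75.2 and 26.4 normalized counts in EV and 3.60 and 11.3 in overexpressing cells (adjusted p of 0.403 in the authors' deposited table). SHROOM3, an actin-binding protein gene near CXCL10, stood at 6052 and 4544 against 2813 and 3119 (adjusted p of 0.525 in the authors' deposited table). TPCN1, an endolysosomal channel gene within 500 kb of OAS3, stood at 1203 and 1564 normalized counts in EV and 506 and 646 in overexpressing cells, opposite to OAS3, with an adjusted p of 0.102 in the authors' deposited table. PRDM15, within 500 kb of MX1 and MX2, stood at 447 and 1689 in EV and 2772 and 2989 in overexpressing cells, opposite to both, with an adjusted p of 0.380 in that table. FRMPD4, within 500 kb of TLR7, had 447 normalized counts in EV replicate 1 and 0 in the other 3 libraries.

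Among 11 other listed pathway genes with a promoter window, 8 held an ISRE match: DTX3L, HERC5, IFITM1, LGALS3BP, PARP9, PLSCR1, RSAD2 and SOCS1. Over all pathway list genes with a window, listed or not, it was 46 of 111. DTX3L and PARP9 start from overlapping ends on opposite strands, so their windows are not independent.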
